A study of Mus musculus with 9 samples.

Results

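The comparison set 6 whole-lung arrays of mice exposed to tobacco aerosol, as one group, against 3 whole-lung arrays of mice that breathed fresh air, which together are all 9 arrays of the series. The mice were male C57BL/6J animals, 12 weeks old at the start. Over 6 months they were exposed to fresh air (air, 3 arrays), to cigarette smoke at 3.5% (CS, 3 arrays) or to the aerosol of IQOS at 3.5% (IQOS, 3 arrays). IQOS is a device that heats tobacco instead of burning it. The groups share strain, sex, age at the start and length of exposure, and the labels do not say whether each array came from a different animal, so every p-value measures the spread between these samples, which may be technical. A gene was counted as separated when all 6 exposed arrays lay above, or all 6 lay below, all 3 air arrays. The question was which genes behaved in this way and whether CS and IQOS moved them by the same amount. All levels are log2 signals of Cy3-labelled RNA relative to the 75th percentile of the same array, so a level of 0 is the 75th percentile, and a difference of 1 is 2-fold.

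As background, the aryl hydrocarbon receptor (AhR) is a ligand-activated transcription factor that senses combustion-derived aromatic hydrocarbons and switches on the cytochrome P450 genes Cyp1a1 and Cyp1b1 and its own repressor Ahrr. NRF2 is a transcription factor that is released by electrophiles and switches on antioxidant enzymes such as Nqo1. In the smoke-exposed lung, macrophages and neutrophils gather in the airspaces, and the proteases they release can degrade elastin. Glucocorticoids, released in stress, act through their receptor on genes such as Fkbp5, a co-chaperone that restrains that receptor.

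The promoters of Cyp1a1, of Ahrr and of the circadian repressor Cry1 are shown because Cyp1a1 changed most in the comparison, and because the promoters of Ahrr and Cry1 hold the motif searched for their list. Each runs 5′ to 3′ on the gene's strand from 250 bases before to 50 bases after the RefSeq start (build GRCm38.p6). Matches of the motif searched for the gene's list are in capitals. They lie at chr9:57697363-57697662 (plus strand), chr13:74292282-74292581 (minus strand) and chr10:85185005-85185304 (minus strand).
Cyp1a1: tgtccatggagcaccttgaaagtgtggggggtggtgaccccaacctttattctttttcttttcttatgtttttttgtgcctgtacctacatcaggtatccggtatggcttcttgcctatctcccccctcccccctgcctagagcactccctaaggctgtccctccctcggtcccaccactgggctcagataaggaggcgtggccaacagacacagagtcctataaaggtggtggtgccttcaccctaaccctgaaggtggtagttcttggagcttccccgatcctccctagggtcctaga
Ahrr: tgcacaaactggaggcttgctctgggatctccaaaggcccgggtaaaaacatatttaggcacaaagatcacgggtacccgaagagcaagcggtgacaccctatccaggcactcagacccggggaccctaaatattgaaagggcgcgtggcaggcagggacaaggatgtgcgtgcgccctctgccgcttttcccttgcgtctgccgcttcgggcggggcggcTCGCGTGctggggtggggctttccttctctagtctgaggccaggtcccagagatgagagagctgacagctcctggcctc
Cry1: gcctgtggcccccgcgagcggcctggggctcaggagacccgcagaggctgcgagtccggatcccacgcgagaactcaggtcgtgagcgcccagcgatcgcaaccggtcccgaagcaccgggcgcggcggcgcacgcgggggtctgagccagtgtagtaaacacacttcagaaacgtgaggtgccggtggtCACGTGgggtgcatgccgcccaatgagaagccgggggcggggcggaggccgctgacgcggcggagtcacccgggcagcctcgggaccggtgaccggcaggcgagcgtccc
The AhR motif TNGCGTG was searched on both strands. It occurred at 1 place in the Ahrr window, with its first base 29 bases before the start, and at 0 places in the windows of Cyp1a1, Cyp1b1 and Por. It was present in 5.07% of 32851 promoters of this length. The E-box CACGTG of the clock proteins occurred at 1 place in the Cry1 window, 60 bases before the start, against 7.15% of promoters. The NRF2 motif TGACNNNGC had 0 matches in the Nqo1 window and was present in 12.4% of promoters. Each window was searched for the motif of its own list alone, so the capitals do not show whether it holds the other motifs. A match describes letters and not binding, and the absence of a match says only that the letters are not in this window.

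The arrays were of similar brightness, with 75th percentile signals of 973.3 to 1098 units, 64.3% to 68.8% of probes well above background and 0 saturated spots. Lung markers were bright in every group, with mean levels of 9.19 to 9.30 for surfactant protein C (Sftpc), 8.99 to 9.12 for the club cell secretoglobin Scgb1a1 and 8.09 to 8.10 for the alveolar type I receptor Ager. In a principal component analysis the first component (35.6% of the variance) set the 3 CS arrays at 32.5 to 56.5 apart from the air arrays at -30.3 to -24.1, with the IQOS arrays at -21.5 to -10.8. The second (17.8%) set the IQOS arrays at -33.4 to -20.3 apart from the air arrays at 12.9 to 34.9. Per the file headers, the air and CS arrays share slide 1 and the IQOS arrays are on slide 2, so slide and IQOS cannot be told apart, IQOS minus CS also compares the slides, and CS minus air is the value within a slide. All CS arrays and air 3 lie in row 2 of their slide, and all IQOS arrays, air 1 and air 2 in row 1.

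Of 16593 genes tested, each read by its brightest probe, 766 were separated upwards (4.62%) and 1233 downwards (7.43%). In the limma fit over all 9 arrays (Benjamini-Hochberg adjusted p under 0.05 over 37258 probes), the mean of the CS and IQOS groups was called higher than air for 485 genes (2.92%) and lower for 479 (2.89%). Both criteria were met by 714 genes, 306 of them higher (1.84%) and 408 lower (2.46%). The changes were modest for most: the median was 0.45 among the higher genes and -0.36 among the lower ones, and 38 and 11 of them changed by at least 2-fold. All 9 arrays were well above background for 688 of the 714. The gap between the nearest exposed array and the nearest air array had a median of 0.12, and among these 688 it ranged from 0.0016 to 0.86 for the higher and from 0.0018 to 1.03 for the lower genes. The median change over all tested genes was -0.01.

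Where the aerosols differed in size, the change was larger with CS in most of the genes. The contrast IQOS minus CS, which holds no air array, was called for 146 of the 714 genes (20.4%), against 10.1% of all tested genes (4.94% higher and 5.18% lower with IQOS). The change was larger with CS in 111 of these and larger with IQOS in 35. Among the higher genes 51 called differences were larger with CS and 34 with IQOS, and among the lower genes 60 were larger with CS and 1, the guanine nucleotide exchange factor Ngef, with IQOS (-0.15 with CS, -0.46 with IQOS; named after its values were seen). Of the remaining genes, with no called difference, 468 (82.4%, against 74.6% of all tested genes with no called difference) had a 95% interval of IQOS minus CS within 1.5-fold in either direction, and for 100 it reached past 1.5-fold. Of the 146 called differences, 70 also had an interval within 1.5-fold. Of the 104 higher genes changed at least 1.5-fold, 35 were called in size, 32 of them larger with CS, and 23 had an interval within 1.5-fold. Of the 70 lower genes of that size, 17 were called, all of them larger with CS, and 25 had an interval within 1.5-fold. The median change of the 306 higher genes was 0.47 with CS and 0.41 with IQOS, and that of the 408 lower genes was -0.44 and -0.30. Each aerosol was also set against the same 3 air arrays by itself. Over all tested genes CS was called higher in 930 (5.6%) and lower in 1016 (6.12%), and IQOS in 330 (1.99%) and 147 (0.886%). Of the 714, CS was called by itself in 583, IQOS in 233, both in 128 and neither in 26. A change given below for CS or for IQOS is therefore a value and not by itself a call. The requirement that every array of both aerosols clears the air arrays favours genes that moved alike, so these counts do not describe the genes outside it. The pooled call and IQOS minus CS also use the same estimate of a gene's spread, so the choice of the 714 favours genes of low spread. Their shares of called differences and of narrow intervals can therefore exceed those of all tested genes through the choice itself.

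**Figure D1:**
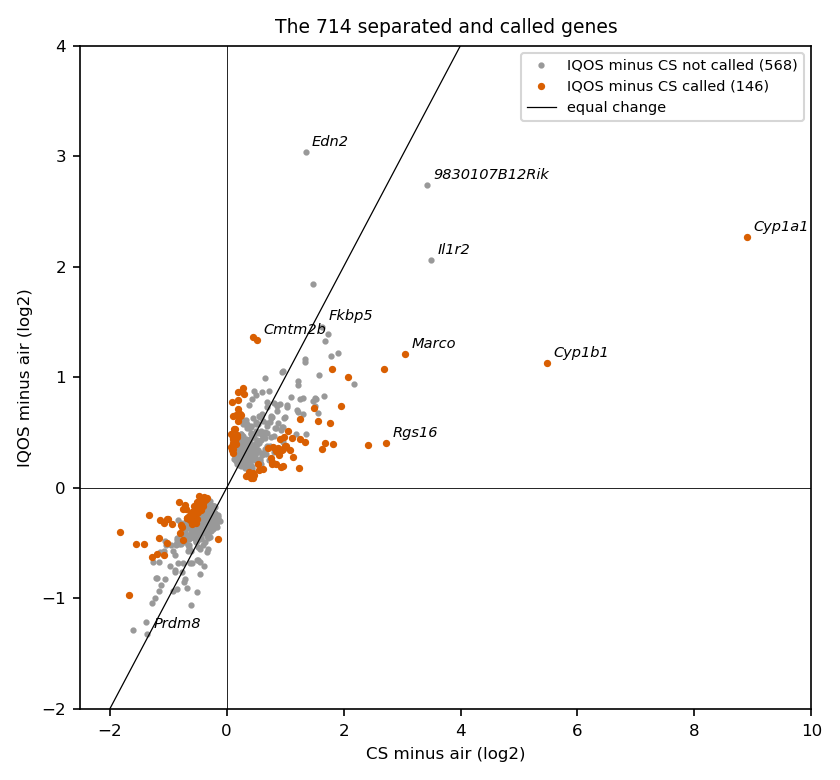
Change against air with CS (horizontal axis, log2) and with IQOS (vertical axis, log2) for the 714 separated and called genes, 1 point a gene, with 146 genes coloured where IQOS minus CS was called. Both axes use the same 3 air arrays, so the points are not independent comparisons. Cyp1a1 and Cyp1b1 lie far to the right of the line of equal change, and Fkbp5 and Prdm8 lie close to it.

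The calls depended strongly on single arrays, air 1 above all. With all arrays 1061 probes were called higher (2.85% of those tested) and 1022 lower (2.74%). Without air 1, 2 probes were called, one for Klk1b11 and one with no symbol, and 1 of the 714 genes (Klk1b11) kept its call. Without air 2 and air 3 the calls of 160 and 104 of the 714 remained, and without single CS or IQOS arrays those of 186 to 435, the fewest without CS 2. The median adjusted p of the 714 was 0.132 without air 1, and 141 of them stayed under 0.1 (limma). All 714 still had an unadjusted p under 0.05 there, in genes chosen with air 1 included. Leaving out an array cannot undo a separation, so the direction of the 714 was kept by their choice. With the row on the slide as a covariate, which the data can separate from the aerosol through air 3 alone, 144 higher and 169 lower genes were separated and called, and 2 of the size differences were called. With the slide as a block, the exposure term rests on CS against air within slide 1.

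The largest increase was that of Cyp1a1, the AhR-driven enzyme that oxidises aromatic hydrocarbons. Its level was -2.62, -2.07 and -2.06 in air, 6.64, 6.68 and 6.65 with CS, and -1.58, -1.46 and 3.09 with IQOS. All 6 exposed arrays were above air, the CS arrays were within 0.04 of one another, and IQOS 3 stood far above IQOS 1 and IQOS 2. The change was 5.59 ± 0.95 (SE, adjusted p = 0.0241, limma), made up of 8.91 with CS and 2.27 with IQOS. The IQOS change by itself was not called (95% interval -0.26 to 4.79, adjusted p = 0.273). IQOS minus CS was -6.64 (95% interval -9.16 to -4.12, adjusted p = 0.0130). Without IQOS 3 the change of the exposed group was 4.82 and IQOS minus CS was -8.18. Cyp1b1, a related hydrocarbon-oxidising P450, was at -0.91, -1.16 and -0.66 in air, 4.67, 4.68 and 4.37 with CS, and -0.26, 0.07 and 0.84 with IQOS. It showed the same order, with IQOS 3 again the highest IQOS array. Its change was 3.31 ± 0.23 (adjusted p = 0.0106), with 5.48 for CS and 1.13 for IQOS, the latter not called by itself (adjusted p = 0.0604). Por, the reductase that hands electrons to the P450 enzymes, was the list's other separated gene and the one whose sizes did not differ by a call: 5.41, 5.42 and 5.37 in air, 5.95, 5.87 and 5.70 with CS, 5.73, 5.83 and 5.68 with IQOS. The change was 0.44 with CS and 0.34 with IQOS, and the interval of the difference ran from -0.27 to 0.08.

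Over all tested genes 2.92% were called higher and 2.89% lower, the background for the pooled calls of every list that follows. For counts of separated genes the background is 4.62% upwards and 7.43% downwards. For genes both separated and called it is 1.84% and 2.46%. For calls in IQOS minus CS it is 4.94% higher and 5.18% lower with IQOS. Over the 19 measured AhR targets and phase I enzymes, 6 were called higher and 1 lower, 3 of the 6 were separated, and 6 were called lower with IQOS than with CS. The list's median was 0.44 with CS and 0.08 with IQOS, against -0.02 and -0.01 over all tested genes. Ahrr, the receptor's repressor, was called (adjusted p = 0.0106) but not separated. It was not well above background on any air array, it was on all 3 CS arrays (0.23, 0.22 and -0.58) and on 1 of the 3 IQOS arrays, and CS exceeded air by at least 38.9-fold. The remaining called members, all outside the separated genes, were Aldh3a1 (2.82 with CS, 0.34 with IQOS), Nfe2l2, which encodes NRF2 itself (0.93 and 0.08), and, among those lower, Fmo1 (-0.66 and -0.30). Of the 31 NRF2 targets none was separated and 2 were called, Gstp1 higher and Abcc1 lower. The list's median was 0.46 with CS and -0.14 with IQOS, and 17 members were called lower with IQOS than with CS. Nqo1, its quinone reductase, was at -1.29, -1.81 and -1.06 in air, 0.81, 1.25 and 1.46 with CS and -2.09, -1.91 and -0.49 with IQOS. Its groups of exposed and air arrays overlapped, and the pooled change of 1.23 was not called (adjusted p = 0.0821), while IQOS minus CS was -2.67 (adjusted p = 0.0108). Of the calls on AhR genes, those of Cyp1b1 and Ahrr ended without air 1, and those of Cyp1a1 and Por also without air 2, air 3 or CS 2, with adjusted p-values of up to 0.116.

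**Figure D2:**
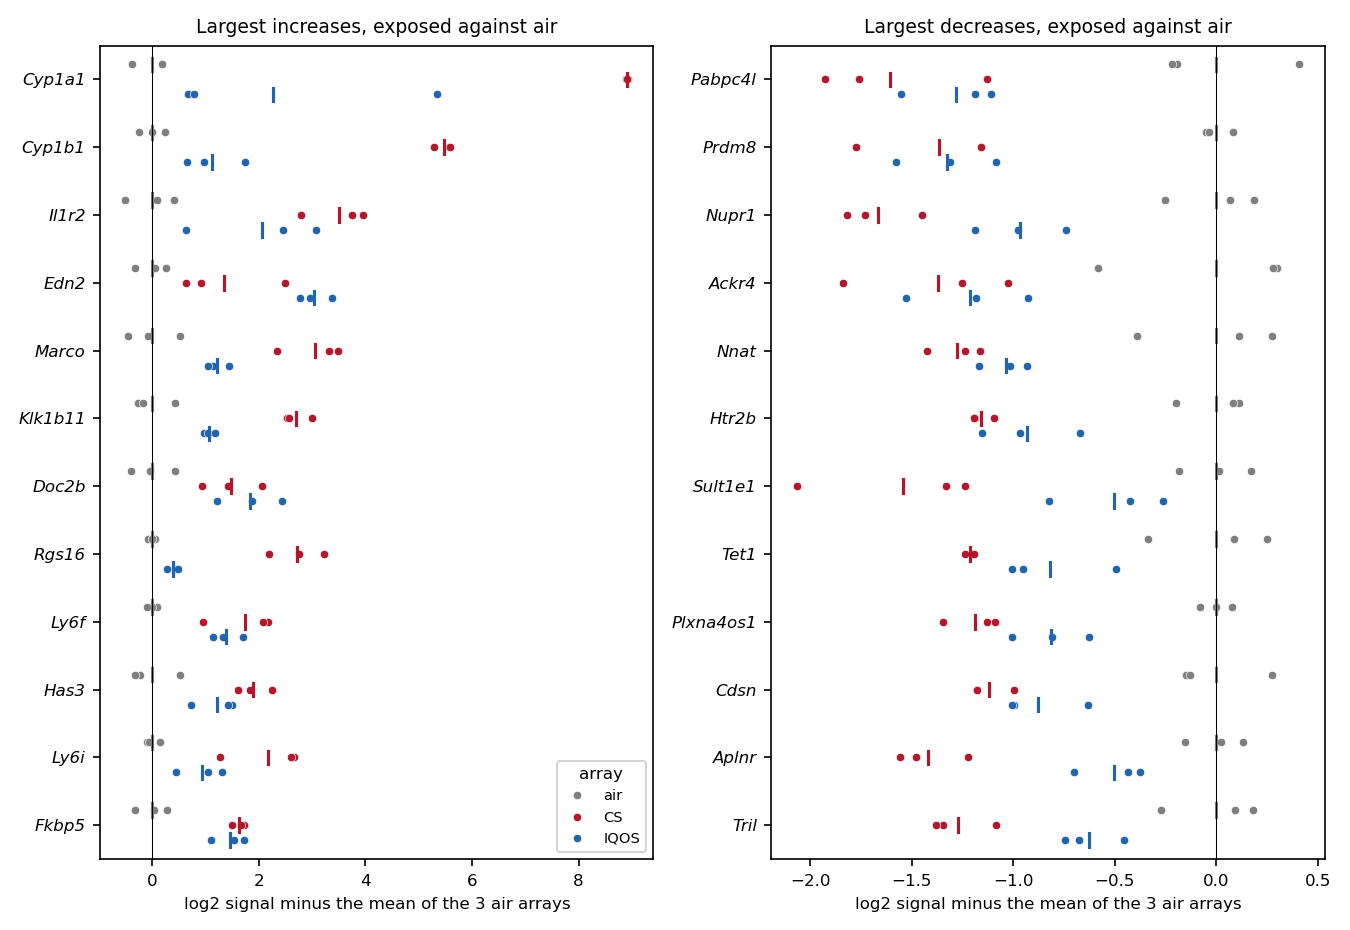
Level of each array minus the mean of the 3 air arrays (log2) for the 12 largest increases (left) and 12 largest decreases (right) among separated and called genes, leaving aside predicted symbols such as 9830107B12Rik and AI197445. Points are arrays, short bars are group means of 3 arrays. In air, Edn2, Klk1b11 and Has3 were not well above background on any array, nor were Klk1b11 with IQOS and Pabpc4l and Plxna4os1 with CS, so these positions show bounds. The Cyp1a1 point of IQOS 3 lies away from the other IQOS arrays.

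Several of the other large increases were those of genes of myeloid cells. Il1r2, a decoy receptor for interleukin 1 that is abundant on neutrophils, rose by 2.78 ± 0.53 (adjusted p = 0.0310). It was at -1.26, -0.67 and -0.35 in air, 2.04, 2.98 and 3.20 with CS, and 2.31, -0.12 and 1.70 with IQOS, so that IQOS 2 lay just above the air arrays and the other exposed arrays lay well clear. Marco, a scavenger receptor of alveolar macrophages, was at 1.71, 0.75 and 1.12 in air, 4.69, 3.54 and 4.51 with CS, and 2.63, 2.34 and 2.25 with IQOS. Every exposed array exceeded air and every CS array exceeded every IQOS array, with changes of 3.05 and 1.21 and a called difference of -1.84 (adjusted p = 0.0178). The activating Fc receptor gene Fcgr4 rose by 1.49 with CS and 0.72 with IQOS, and the sheddase gene Adam8 by 1.95 and 0.74, both with a called difference in size, with Fcgr4 the 1 called gene of 19 monocyte and interstitial macrophage markers, and with adjusted p-values of 0.0177 and 0.0189 for the pooled change. Cxcl1, a chemokine that draws neutrophils, was separated by a gap of 0.14 and changed by 2.41 with CS against 0.39 with IQOS (difference -2.02, 95% interval -2.74 to -1.31). Ly6f and Ly6i, which encode membrane proteins of one family of closely similar genes, changed by 1.57 and 1.56. Their probes may read more than 1 of these genes. For none of the genes given in this paragraph was the IQOS change called by itself (adjusted p from 0.0506 for Ly6f to 0.501 for Cxcl1, limma).

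Of the 21 measured neutrophil markers, 5 were called higher and 4 of these were separated: Il1r2, Trem1, Hdc and Elane. The list had the highest median of all lists, 1.70 with CS and 0.94 with IQOS. Trem1, an amplifying receptor of inflammation, was at 0.71, 0.71 and 0.74 in air, 1.27, 1.32 and 1.55 with CS and 1.39, 0.95 and 1.18 with IQOS, so the aerosols overlapped and both cleared the air arrays. Hdc, the histamine-forming enzyme, changed by 0.75 and 0.60, and the difference in size ran from -0.51 to 0.21. Elane, neutrophil elastase, went the other way in size: -0.28, -0.33 and -0.35 in air, -0.25, -0.20 and -0.23 with CS, and 0.24, 0.70 and 0.42 with IQOS. The CS arrays cleared air by a gap of 0.04 and the rise was mainly that of IQOS, with a difference of 0.68 (adjusted p = 0.0113). Elane and Adam8 were also the 2 separated genes of the 4 called higher among 23 elastin-degrading proteases and inhibitors. The log2 of the summed signal of the neutrophil list was 7.68 to 8.03 in air, 8.56 to 9.69 with CS and 7.72 to 8.90 with IQOS, and 20 of its 21 probes were well above background on all arrays. In whole lung, more cells of a type and more RNA per cell cannot be told apart, here and for every marker list that follows.

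The alveolar macrophage list held 7 genes called higher and 1 lower of 19, of which Marco alone was separated, and 10 members were called lower with IQOS than with CS. Its summed signal was 7.77 to 7.97 in air, 8.62 to 8.93 with CS and 7.90 to 8.08 with IQOS. Of 30 lysosomal and lipid-handling macrophage genes, 7 were called higher and none of the 7 was separated. Among these was Gpnmb, a glycoprotein of lipid-laden macrophages: -1.02, -0.62 and -0.59 in air, 1.54, 1.07 and 1.64 with CS, -0.65, -0.59 and -0.88 with IQOS. Its IQOS arrays lay among the air arrays, and the pooled change of 1.10 (adjusted p = 0.0175) was that of CS. Of 30 cytokine and chemokine genes 5 were called higher and 2 were separated, Cxcl1 being the 1 that met both criteria. Their median was 0.80 with CS and 0.09 with IQOS, and 11 were called lower with IQOS than with CS. Among 25 complement and acute-phase genes Lrg1, a leucine-rich glycoprotein of the acute phase, was the separated one of the 3 called, with changes of 1.52 and 0.74.

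Among the lymphocyte markers 4 of 19 T cell genes and 1 of 18 B and plasma cell genes were separated, all upwards, and 3 of these were also called. Icos, a costimulatory receptor of activated T cells, was at -1.68, -1.25 and -1.33 in air, -0.64, -0.73 and -0.80 with CS and -0.39, -0.83 and -0.71 with IQOS, a change of 0.74 in which the aerosols overlapped. Cd4, the coreceptor of helper T cells, was at 1.12, 1.04 and 1.19 in air, 1.24, 1.30 and 1.29 with CS and 1.70, 1.82 and 1.80 with IQOS. The CS arrays cleared air by 0.05 and the IQOS arrays stood higher, with a difference in size of 0.50 (adjusted p = 0.00558). The median of the 19 T cell markers was 0.08 with CS and 0.43 with IQOS. Vpreb3, a chaperone of B cell receptor assembly, rose by 0.62 while the median of the 18 B and plasma cell markers was -1.12 with CS and -0.29 with IQOS. It was the list's only pooled call. With CS by itself 4 of the 18 were called lower and 1 higher (6.12% and 5.6% of all tested genes), and with IQOS 0. Among all the calls on immune genes, none of those named was kept without air 1. All but those of Cd4 and Gpnmb also ended without at least 1 of air 2, air 3, CS 1, CS 2, CS 3, IQOS 1, IQOS 2 and IQOS 3, Marco's without air 3, and the highest adjusted p reached was 0.148 (Ly6i).

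Fkbp5 rose with both aerosols, with no called difference in size. It was at 1.83, 2.43 and 2.19 in air, 3.88, 3.82 and 3.65 with CS, and 3.87, 3.70 and 3.26 with IQOS. The gap to air was 0.83, and apart from IQOS 3 the exposed arrays lay within 0.23 of one another. The change was 1.55 ± 0.16 (2.92-fold, adjusted p = 0.0146, limma), with 1.64 for CS and 1.46 for IQOS. The difference of -0.18 had an interval from -0.61 to 0.26, which reached just past 1.5-fold on the CS side. Of the 19 glucocorticoid-responsive genes 4 were called higher, Fkbp5, Lcn2, Mt1 and Mt2, and 2 were separated. The list's median was 0.31 with CS and 0.34 with IQOS. Mt1, a metal-binding metallothionein that also answers zinc and oxidants, was the other separated member, and there the sizes differed: 5.83, 5.68 and 5.85 in air, 7.33, 7.45 and 7.46 with CS, 6.04, 5.99 and 6.39 with IQOS. The CS change was 1.63 and the IQOS change 0.35, a difference of -1.27 (adjusted p = 0.00199). Mt2 and Lcn2, which were not separated, also had a called IQOS minus CS, of -1.56 and -1.21. Of the 19 glucocorticoid-responsive genes 3 were called lower and 1 higher with IQOS than with CS, so the near-equal medians do not describe every member. Of the 12 metallothionein and zinc genes 3 were called and 2 were separated, and Mt1 met both criteria.

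Immediate early genes, which follow cell activation within minutes, had a median of 0.62 with CS and 0.37 with IQOS over 22 members. Of these 3 were called higher, 2 of them separated. Junb and Fosl2, subunits of the transcription factor AP-1, were separated by 0.01 each and changed by 0.96 and 0.41, and by 0.98 and 0.64. Pim1, a survival kinase and the 1 called gene of 18 antiapoptotic genes, changed by 1.01 and 0.38, and Cry1, the 1 separated gene of 18 clock genes, by 0.97 and 0.35. Both differences in size were called (-0.63 and -0.62). Rara, the retinoic acid receptor alpha, was the separated one of 2 called genes of 18 in retinoid metabolism and changed by 0.48 and 0.29, a difference that was not called. Rgs16, a brake on G protein signals, was at -2.65, -2.53 and -2.58 in air, 0.63, -0.39 and 0.18 with CS and -2.31, -2.15 and -2.09 with IQOS. The IQOS arrays cleared air by 0.22 and the CS arrays stood far higher, a difference of -2.32 (95% interval -2.83 to -1.82). Doc2b, a calcium sensor of vesicle release, changed by 1.66 ± 0.33, with 1.48 for CS and 1.84 for IQOS.

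For 3 of the 12 largest increases the air arrays gave only a bound. Edn2, which encodes the vasoconstrictor endothelin 2, was well above background on 0 of 3 air, 1 of 3 CS and 3 of 3 IQOS arrays, and it was at least 1.27-fold higher in the exposed group and at least 2.27-fold higher with IQOS (adjusted p = 0.0267 for the exposed group). Has3, a hyaluronan synthase, was above background on 0 air, 3 CS and 2 IQOS arrays and was at least 1.45-fold higher. Klk1b11, a glandular kallikrein with many close paralogues, was above background on the CS arrays alone, at least 1.55-fold higher there. It was tested through those arrays alone. Its separation with IQOS rests on signals near the background, and so in part does its pooled call. Among the genes of this and the preceding 2 paragraphs, the calls of Fkbp5, Mt1 and Rgs16 ended without air 1 alone and that of Klk1b11 was kept without each of the 9 arrays. Those of the others given with their changes also ended without at least 1 of air 2, air 3, CS 1, CS 2, CS 3, IQOS 1, IQOS 2 and IQOS 3, with adjusted p-values of up to 0.159 (Fosl2).

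The decreases differed in size between the aerosols in 61 of 408 genes (15.0%), against 85 of 306 (27.8%) of the increases. Prdm8, a chromatin regulator of the PR domain family, had the widest gap of the lower genes, 1.03. It was at -1.50, -1.36 and -1.48 in air, -3.22, -2.60 and -2.60 with CS and -3.02, -2.76 and -2.53 with IQOS. The change was -1.34 ± 0.16 (2.54-fold lower, adjusted p = 0.0159), -1.36 with CS and -1.32 with IQOS, and the interval of the difference ran from -0.39 to 0.47. Nupr1, a stress-induced chromatin protein, was at 6.76, 6.43 and 6.87 in air, 4.87, 4.96 and 5.24 with CS and 5.50, 5.95 and 5.71 with IQOS. Every exposed array was below air and every CS array was below every IQOS array. Nupr1 changed by -1.67 with CS and -0.97 with IQOS, a difference of 0.70 (adjusted p = 0.0340). Ackr4, an atypical receptor that scavenges chemokines, was at -1.79, -2.67 and -1.81 in air, -3.93, -3.34 and -3.12 with CS and -3.28, -3.62 and -3.02 with IQOS. Here the aerosols overlapped, with changes of -1.37 and -1.21.

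Nnat, a small membrane proteolipid from an imprinted gene, changed by -1.28 with CS and -1.04 with IQOS. Htr2b, a serotonin receptor, was at -0.65, -0.68 and -0.96 in air, -1.95, -1.86 and -1.96 with CS and -1.44, -1.73 and -1.92 with IQOS, and its change of -1.04 ± 0.11 (adjusted p = 0.0159) did not differ in size by a call (interval -0.08 to 0.53). Tet1, which oxidises methylated cytosine, changed by -1.21 and -0.82, and Cdsn, an adhesive protein of cornified epithelium, by -1.12 and -0.88. Tril, an accessory protein of Toll-like receptors, changed by -1.27 and -0.63, with a called difference of 0.65. Pabpc4l and the antisense transcript Plxna4os1 were well above background on all 3 air arrays, on none of the CS arrays and on 1 IQOS array each, with CS at least 1.83-fold and at least 1.63-fold lower. Without air 1 none of the calls in this and the preceding paragraph was kept. That of Ackr4 also ended without air 3, CS 2, IQOS 1, IQOS 2 or IQOS 3, those of Tet1 and Pabpc4l without air 3, and the highest adjusted p was 0.147 (Ackr4).

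Several matrix genes fell. Of 29 measured matrix and elastic fibre genes 7 were called lower (against 2.89% of all tested genes) and 0 higher (1 of 16 fibroblast markers, Col1a1, was also called), and 6 of the 7 were separated: Col1a1, Col3a1, Emilin1, Fbn1, Loxl1 and Tnc. The list's median was -0.36 with CS and -0.13 with IQOS, and 8 members were called higher with IQOS than with CS. Fbn1, fibrillin of the elastic fibre, was at 1.37, 1.54 and 1.35 in air, 0.60, 0.71 and 0.53 with CS and 1.35, 1.27 and 1.26 with IQOS. IQOS 1 lay 0.0020 below the nearest air array, so its separation with IQOS is within the spread of the arrays, and the change was -0.81 with CS and -0.13 with IQOS. Loxl1, which cross-links elastin, changed by -1.01 and -0.28, and Col1a1, the alpha 1 chain of type I collagen, by -0.93 and -0.32, both with called differences in size. The differences of the other 3 were not called. Col3a1, a fibrillar collagen chain, changed by -0.91 and -0.57 (interval of the difference -0.03 to 0.72), and Emilin1, an elastic fibre glycoprotein, by -0.40 and -0.21 (0.01 to 0.38). Tnc, the matrix glycoprotein tenascin C, was at -4.16, -3.95 and -4.12 in air, -4.43, -4.96 and -4.89 with CS and -4.93, -5.26 and -4.77 with IQOS, with changes of -0.69 and -0.91 and an interval of the difference from -0.61 to 0.17.

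Some vessel and mural genes were also among the lower ones. The angiogenic receptor genes Aplnr and Tek, together with Calcrl, were the 3 of 23 endothelial markers called lower, while Lyve1, a hyaluronan receptor of lymphatic vessels and some macrophages, was called higher. Aplnr, the apelin receptor, was at -0.52, -0.80 and -0.63 in air, -2.20, -1.87 and -2.13 with CS and -1.35, -1.08 and -1.03 with IQOS, a change of -1.42 against -0.50. Tek, the angiopoietin receptor, changed by -0.43 and -0.20. The endothelial list as a whole had a median of -0.18 with CS and 0.02 with IQOS. Its summed signal was 8.90 to 9.17 in air, 8.94 to 9.03 with CS and 9.02 to 9.15 with IQOS, so the groups overlapped. Pdgfrb and Cspg4, markers of pericytes, changed by -0.56 and -0.33, and by -0.44 and -0.39. Of 17 smooth muscle and pericyte markers 3 were called lower and 6 were separated downwards. The summed signal of that list was 7.24 to 7.35 in air, 6.64 to 7.07 with CS and 6.97 to 7.23 with IQOS, and that of 16 fibroblast markers was 8.44 to 8.52, 8.26 to 8.38 and 8.42 to 8.57. All markers of both lists were well above background on all 9 arrays, and the part of these cells in the matrix result was not tested. The cardiac and adipocyte lists had medians of -0.51 and -0.78 with CS and 0.01 and -0.15 with IQOS, with 0 of 15 and 1 of 14 genes called (Adrb3, lower). Whether these transcripts came from the lung or from tissue next to it was not tested. Without air 1 none of the calls of the matrix, vessel and mural genes was kept. Those of Fbn1, Loxl1 and Aplnr ended without air 1 alone, and those of Col1a1, Tnc, Tek, Lyve1, Pdgfrb and Cspg4 also without 3 to 8 of the other arrays, with adjusted p-values of up to 0.175 (Tek).

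Among genes changed at least 1.5-fold, leaving aside predicted symbols, those with the tightest bound on the difference between the aerosols were Slc38a4, Mbd1, Dlx2, Gucy2c, Gjc3 and Icos among the higher and Tnfrsf11b, Cdh16, Cd209a, Efcc1, Nrg2 and Golm2 among the lower. Tnfrsf11b, which encodes osteoprotegerin, a decoy receptor that limits bone resorption, was the first of the lower ones. It was at -3.21, -3.12 and -3.11 in air, -3.94, -3.90 and -3.90 with CS and -3.96, -4.08 and -3.68 with IQOS. Both changes were -0.76 and the interval of the difference was -0.22 to 0.24. Cdh16, a cadherin of epithelia, was at 0.44, 0.49 and 0.38 in air, -0.37, -0.33 and -0.77 with CS and -0.49, -0.35 and -0.66 with IQOS, a change of -0.92 and -0.93. Both genes showed overlapping aerosols, clear of air. Slc38a4, a transporter of neutral amino acids, was at -0.08, -0.16 and -0.33 in air, 0.81, 0.57 and 0.47 with CS and 0.42, 0.80 and 0.51 with IQOS, a change of 0.81 and 0.77. Cd209a, a lectin of dendritic cells, changed by -0.60 and -0.68. Mbd1, which binds methylated DNA, changed by 0.69 and 0.59. Dlx2, a homeobox gene, was not well above background in air and was at least 1.52-fold higher with CS and at least 1.51-fold higher with IQOS. Its pooled call also ended under normexp, quantile normalization, the series matrix values and robust variances, and that of Gucy2c under normexp. All 12 intervals lay inside 1.5-fold. Without air 1 none of the 12 pooled calls was kept, those of Tnfrsf11b, Cdh16 and Efcc1 ended without air 1 alone, and the others also without at least 1 of air 2, air 3, CS 1, CS 2, CS 3, IQOS 1, IQOS 2 and IQOS 3, with adjusted p-values of up to 0.166 (Dlx2).

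**Figure D3:**
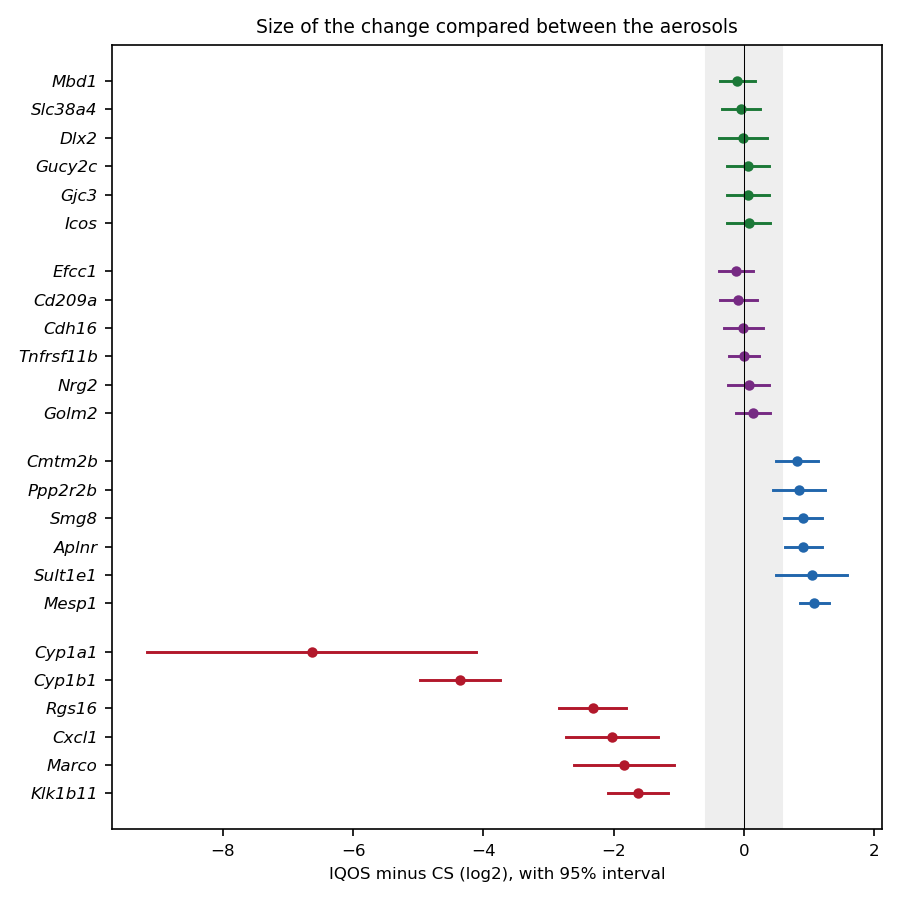
IQOS minus CS (log2) with its 95% interval for genes named as most alike (green, higher, and purple, lower) and as most unequal (blue, IQOS above CS; red, IQOS below CS). The grey band is 1.5-fold in either direction. The 12 alike genes lie inside the band, and Cyp1a1 lies farthest from 0 at -6.64. Klk1b11 was not well above background with IQOS, so its point and interval do not measure a size.

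Leaving aside predicted symbols, the opposite end was led by Cyp1a1, Cyp1b1, Rgs16, Cxcl1 and Marco, all higher with CS than with IQOS, and by Mesp1, Sult1e1, Aplnr, Smg8, Ppp2r2b and Cmtm2b, higher with IQOS than with CS. Klk1b11, also named there, was not well above background on any IQOS array, so its difference is a bound, at least 1.75-fold higher with CS (adjusted p = 0.00470), and has no rank. In 4 of the 6 genes higher with IQOS that means a smaller decrease with IQOS. Mesp1, a transcription factor of early mesoderm, was at -1.73, -1.49 and -1.60 in air, -3.11, -2.87 and -2.83 with CS and -1.76, -1.85 and -1.95 with IQOS. Its IQOS arrays lay just below the air arrays, the gap was 0.03, and the difference was 1.08 (95% interval 0.86 to 1.31). Sult1e1, the oestrogen sulfotransferase, changed by -1.54 with CS and -0.50 with IQOS, and Ppp2r2b, a regulatory subunit of protein phosphatase 2A, by -1.14 and -0.29. Larger increases with IQOS were those of Cmtm2b, a chemokine-like transmembrane protein, and Smg8, a regulator of nonsense-mediated decay. Cmtm2b was at -3.45, -3.83 and -3.79 in air, -3.16, -3.07 and -3.28 with CS and -2.59, -2.33 and -2.15 with IQOS, in steps that did not overlap (0.52 and 1.33). Smg8 was above background on 1 of 3 air arrays and on all exposed arrays, and changed by 0.45 and 1.36. With the slide as a block the pooled calls of Smg8, Cmtm2b, Cd4, Elane and Edn2 ended, since the exposure term is then that of CS. With the row on the slide as a covariate the size difference of Cyp1b1 was still called (-3.98, adjusted p = 0.0409), and those of Cyp1a1 (-6.35, adjusted p = 0.325), Marco (-1.95, 0.324), Rgs16 (-2.31, 0.119) and Mesp1 (1.10, 0.107) were of similar size and were not called. Those of Smg8 and Loxl1 shrank to 0.49 (adjusted p = 0.294) and 0.45 (0.431). Of 28 named genes called in size, 16 kept that call whichever 1 array was left out, among them Cyp1a1, Ahrr, Cyp1b1, Nqo1, Rgs16, Gpnmb and Cxcl1. The exceptions were Adam8, Cmtm2b, Col1a1, Cry1, Fcgr4, Marco, Nupr1, Pim1, Ppp2r2b, Sult1e1, Tril and Vpreb3, which lost it without at least 1 of the arrays, air 1, air 2 and air 3 included, with adjusted p-values of up to 0.117 (Fcgr4). The pooled calls of Mesp1, Aplnr and Smg8 ended without air 1 alone, and those of Sult1e1, Ppp2r2b and Cmtm2b also without 1 to 7 further arrays (adjusted p of up to 0.125).

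Of 31 proapoptotic genes 1 was called, Trp53, which encodes p53, and of 18 antiapoptotic genes 1, Pim1. Over all tested genes 2.92% were called higher and 2.89% lower, so these pooled counts are near the background. With CS by itself 5 of the 18 antiapoptotic genes were called higher (5.6% of all tested genes), and with IQOS 0 (1.99%). In IQOS minus CS 4 of the 18 were called lower with IQOS (5.18%). Of the 31 proapoptotic genes 0 were called higher and 1 lower with each aerosol by itself. Trp53 was at -0.15, -0.17 and -0.13 in air, -0.71, -0.73 and -0.53 with CS and -0.61, -0.51 and -0.56 with IQOS. It was lower than air in both groups, whose arrays overlapped. The change was -0.46 ± 0.06 (1.37-fold lower, adjusted p = 0.0172), -0.50 with CS and -0.41 with IQOS, and the interval of the difference ran from -0.06 to 0.25. The call ended without air 1 or air 3, with an adjusted p of up to 0.0895. Of 22 p53 target genes 0 were called, with 5 at an unadjusted p under 0.05 (26.9% of all tested genes were), and the list's median was -0.01. Cdkn1a, the cell cycle inhibitor p21 and a p53 target, was at 1.99, 2.91 and 1.82 in air, 2.90, 2.51 and 2.54 with CS and 3.41, 3.19 and 2.47 with IQOS. Air 2 lay among the exposed arrays and the change of 0.60 was not called (adjusted p = 0.224). The apoptosis genes Fas and Bcl2 had differences of 0.02 and -0.11 (adjusted p = 0.904 and 0.765), and Bax, at 2.77 in air, 2.82 with CS and 2.71 with IQOS on average, was not called either (adjusted p = 0.968). In the emphysema-associated macrophage elastase gene Mmp12 the pooled difference was 0.56 (adjusted p = 0.336), with -2.87, -3.05 and -2.92 in air, -1.23, -2.69 and -1.21 with CS and -3.19, -3.43 and -2.58 with IQOS.

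Among 24 genes of the unfolded protein and integrated stress responses 2 were called, Nupr1 and Pdia6, both lower, and 6 were separated downwards. Pdia6, a disulfide isomerase of the endoplasmic reticulum, changed by -0.36 with CS and -0.49 with IQOS. The list's median was -0.12 with CS and -0.27 with IQOS. Of 22 interferon-stimulated genes Ifit2 was called, lower (-0.56 and -0.33), while the median of the list was 0.35 and 0.12. Mvk, mevalonate kinase of sterol synthesis, was the 1 called of 22 sterol and fatty acid genes and was lower (-0.31 and -0.35). Calls were made in 0 of 25 cell cycle genes (2 at an unadjusted p under 0.05, which 26.9% of all tested genes reached), 0 of 15 heat shock genes (1), 0 of 24 oxidative phosphorylation genes (2), 0 of 11 alveolar type I (1), 0 of 19 alveolar type II (5), 0 of 14 club cell (5), 0 of 14 ciliated cell (6), 0 of 7 goblet cell (1), 0 of 12 natural killer cell (1), 0 of 8 mesothelial (1), 0 of 9 skeletal muscle (1) and 0 of 6 erythroid markers (0). The calls of Ifit2, Mvk and Pdia6 ended without air 1, Ifit2's also without air 3, and the others' without 6 or 7 further arrays, with adjusted p-values of up to 0.151 (Mvk).

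**Figure D4:**
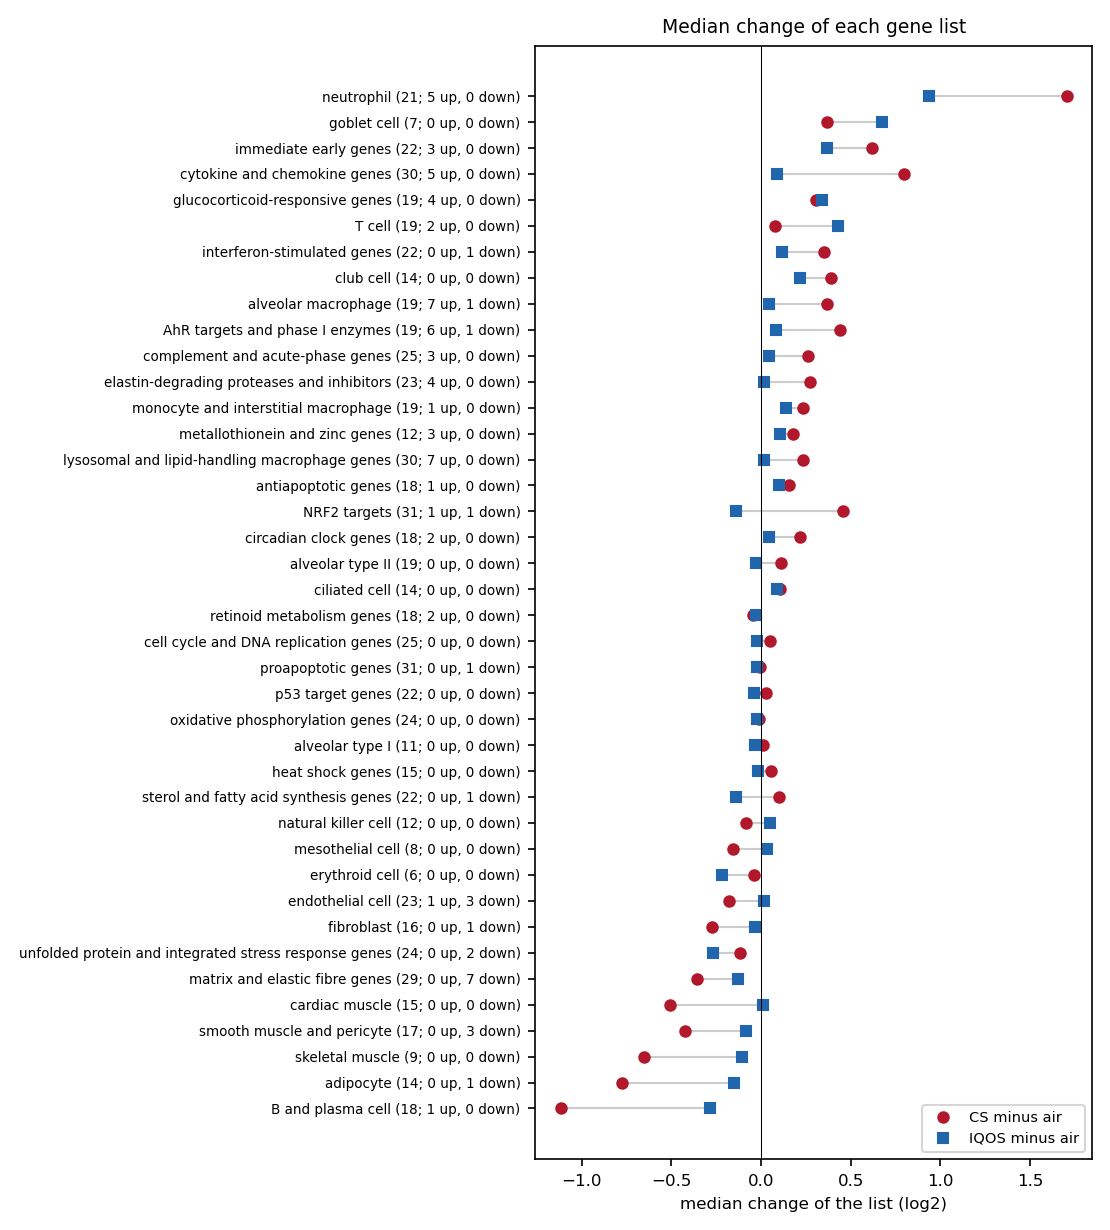
Median change against air of each gene list (log2), with CS as circles and IQOS as squares, and, in brackets, the number of measured genes and the number called higher and lower for the exposed group. The neutrophil list has the highest medians (1.70 and 0.94), and the NRF2 targets differ in sign (0.46 and -0.14). The glucocorticoid-responsive list has nearly equal medians (0.31 and 0.34), though 3 of its members were called lower and 1 higher with IQOS than with CS.

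Separation and the call overlapped in part. Beyond the 714 genes that met both, a further 460 genes were separated upwards and 825 downwards without being called, with median changes of 0.22 and -0.20. Another 250 genes were called but not separated, 179 higher and 71 lower, and IQOS minus CS was called in 194 of these (77.6%). In 16 of the 179 the IQOS mean was below the air mean. The other probes of the same genes were a check that the choice of genes did not use. The 306 higher genes had 115 further tested probes, of which 88 changed upwards and 25 were separated upwards (21.7%, against 2.68% of all 7661 such probes). The 408 lower genes had 214, of which 196 changed downwards and 86 were separated downwards (40.2%, against 9.03%). Such probes share the samples, and some may share part of the transcript. Among the named genes, Cd4, Cdh16, Fbn1, Fkbp5, Fosl2, Mbd1, Mvk, Slc38a4 and Tet1 were called on 1 of their 2 or 3 tested probes. Of 110 genes with at least 2 called probes, 3 had calls in opposite directions, Speg, Ephx3 and Acacb (named after their values were seen).

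When CS and IQOS were fitted as 1 exposed level, so that the difference between them counted as spread, 10 genes remained separated and called (adjusted p = 0.0474 for each): Fkbp5 and 9830107B12Rik, higher, and Prdm8, Cdh16, Tnfrsf11b, Htr2b, Cbx1, Efcab2, B130024G19Rik and 2610027K06Rik, lower. Those outside the naming rule were named after their values were seen. The RIKEN transcript 9830107B12Rik was not well above background on any air array and was on all 6 exposed arrays (-4.47, -4.10 and -2.94 with CS, -4.22, -5.04 and -4.35 with IQOS), at least 2.81-fold higher with CS and at least 1.73-fold higher with IQOS. Cbx1, a heterochromatin protein, showed the least spread: 2.16, 2.25 and 2.14 in air, 1.72, 1.66 and 1.73 with CS and 1.73, 1.74 and 1.74 with IQOS. The 6 exposed arrays lay within 0.08 of one another, 0.40 below the nearest air array, and the interval of IQOS minus CS ran from -0.09 to 0.16. This fit favours genes that both aerosols moved alike, and Cbx1 was picked for its low spread. The agreement of CS and IQOS in these 10 genes therefore follows in part from their choice.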

How the data were processed

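Total RNA of whole lung was labelled with Cy3, per the labels, and hybridised to 9 one-colour Agilent arrays. The spot intensity used is the authors' background-subtracted and detrended signal, with no scaling between arrays. The scanner software was Feature Extraction by Agilent, version 10.7.1.1 in the submitters' processing notes. The deposited series matrix served as an alternative. The authors' values there are a linear ratio of signal to the array's 75th percentile with no centring, which was found by comparison with the scanner values. The steps that made it are not given in the sources used here.

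Outlier spots were left out, the log2 intensity of a probe's spots was averaged and the array's 75th percentile was subtracted. Of 56605 probes, 37258 were tested: those with a value on at least 2 arrays of each group and well above background on every array of at least 1 group. Matching accessions to RefSeq genes named 32994 probes (58.3%) with 22911 symbols. A gene is read by the tested probe of highest mean signal (16593 genes). The contrasts came from one limma model (version 3.58.1, under R 4.3.3, files read by version 1.17.8 of data.table) of the 3 group means over all 9 arrays, with moderated variances. A call needs an adjusted p (Benjamini and Hochberg) under 0.05. The fit was tested on simulated data. Where a probe was not well above background on any array of a group, the fold is a lower bound against the lowest signal above background. The number of arrays limits the precision.

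Named genes are the 12 largest called and separated changes in each direction, the 6 in each direction most alike and the 6 most unequal in IQOS minus CS, up to 3 per gene list by smallest p, and 10 genes always given (the AhR and NRF2 genes Ahrr, Cyp1a1, Cyp1b1 and Nqo1, the apoptosis genes Bcl2, Bax, Fas and Cdkn1a, and the macrophage genes Gpnmb and Mmp12). Predicted symbols were passed over. The comparison, the genes and the 40 lists were chosen with earlier results of these data known, so the lists are described by counts and medians and not tested as sets. Alternatives were other background correction (normexp, offset 50, on the files' median signals in place of the planned mean signals), normalization, filters, variance models, covariates, thresholds, and each array left out.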

Additional observations from a re-analysis of the deposited data

Results flagged for a closer look

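The difference IQOS minus CS (log2) was called, in the limma fit, for 28 of the named genes. Lower with IQOS were the AhR and NRF2 genes Cyp1a1 (-6.64), Ahrr (-5.63), Cyp1b1 (-4.36) and Nqo1 (-2.67), the myeloid and inflammatory genes Gpnmb (-2.12), Cxcl1 (-2.02), Marco (-1.84), Adam8 (-1.22) and Fcgr4 (-0.768), and Rgs16 (-2.32), Mt1 (-1.27), Pim1 (-0.634), Cry1 (-0.622) and Vpreb3 (-0.522). The measured value of Klk1b11 was -1.62, but no IQOS array was well above background there, so the difference is a bound, at least 1.75-fold higher with CS. Higher with IQOS were the matrix genes Loxl1 (0.728), Fbn1 (0.682) and Col1a1 (0.608), the other lower genes Mesp1 (1.08), Sult1e1 (1.04), Aplnr (0.916), Ppp2r2b (0.848), Nupr1 (0.699) and Tril (0.646), and, among the higher genes, Smg8 (0.910), Cmtm2b (0.814), Elane (0.679) and Cd4 (0.498). Each of these differences also lies between slides and between rows of the slide.

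A single array lay apart from the other 5 exposed arrays in 3 named genes. Its distance to the nearest of them was 0.66 of the range for Cdsn (IQOS 3, the highest), 0.628 for Fkbp5 (IQOS 3, the lowest) and 0.671 for Pdia6 (IQOS 1, the lowest). Chance alone marks about 1 group in 20 in this way.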

How the results depend on the processing

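Leaving out 1 array at a time gave 1 to 798 probes called higher and 1 to 708 lower (1061 and 1022 with all arrays), 1 to 238 and 0 to 291 genes separated and called (306 and 408), 863 to 1497 and 1314 to 2089 genes separated (766 and 1233), 62 to 126 size differences called (146), and 409 to 1703 genes called for CS (1946) and 29 to 343 for IQOS (477). Without a filter on dim probes 154 and 124 probes were called and 48 and 58 genes were separated and called, with 72 size differences, 823 genes for CS and 112 for IQOS. With the array row as a covariate the counts were 505 and 489, 144 and 169, 2, 169 and 88. A change of at least 2-fold left 136 and 22 probes, 38 and 11 genes, 16 size differences, 338 genes for CS and 35 for IQOS, and an adjusted p under 0.1 gave 2654 and 2657, 549 and 880, 244, 3504 and 1236. With the slide as a block 1725 and 2115 probes were called, and with exposure in 2 levels 2 and 13 probes and 2 and 8 genes. Neither of these fits gives a difference between the aerosols. Normexp gave 628 lower genes separated and called and 1105 called for IQOS, an intensity trend with robust variances also 628 lower genes, median centring 264 and the mean of all probes 274 genes for IQOS. Among named genes the calls of Elane, Junb, Lyve1 and Tek ended under median centring, that of Tek also under normexp, and those of Cdh16, Fosl2 and Mbd1 with the mean of all probes. The replicate block gave 439 and 336 probes, 118 and 124 genes and 173 for IQOS, but the labels do not say that numbers mark shared animals or batches. Deviations of same-numbered arrays correlated by -0.08 to 0.20, over 0.1 in 4 of 9 pairs, and 2 of 9 arrays correlated best with their own number in both other groups, so a pairing was not established. Signs were compared for the named genes alone, and no value of these that was called in either fit changed sign under any of these settings. Counts under quantile normalization, the series matrix values and a filter on all 9 arrays stayed within 1.5 times. Apart from fewer arrays or probes, the cause of these shifts was not tested. A low signal over background limits genes at the background, such as Klk1b11 and Edn2.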

Other observations

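Of the 35 separated and called genes whose change was larger with IQOS, 31 have a symbol that is not a predicted name. A few of these are named here after their values were seen. Glycam1, a mucin-like ligand of L-selectin, changed by 0.20 with CS and 0.72 with IQOS. Lst1, a leukocyte membrane protein, changed by 0.22 and 0.67, the G protein-coupled receptor gene Gpr35 by 0.24 and 0.66, and the acetyltransferase gene Ep300 by 0.11 and 0.45.

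Of the 2 probes still called without air 1, the one with no symbol here was separated, and its log2 change without that array was -3.02 (adjusted p = 0.00298, limma).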
